A study of Mus musculus with 27 samples.

Results

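The type I interferon stimulated antiviral genes described here are Rsad2, Ifi27l2a, Oas1a, Oas2, Oas3, Irf7, Isg15, Ifit1 and Ifit3. They were taken by symbol from the deposited table of linear RNA, and all 9 were found among its 21742 gene symbols. RNA was measured in 27 libraries from 4 groups of mice, all of strain BALB/c AnNHsd, at an age of 87 days, and all from the left lobe of the lung. In the Dex_CDGHDM group (n = 6) the lungs were sensitized with house dust mite extract and cyclic di-GMP, and the mice received the glucocorticoid dexamethasone intraperitoneally at 3 mg/kg on days 11, 18 and 25 of a protocol of 35 days. In the AM155 group (n = 6) an antisense oligonucleotide directed at miR-155, a microRNA of activated immune cells, was given intravenously in lipid nanoparticles at 2 mg/kg on the same days. The CDG_HDM group (n = 10) was sensitized with the same mite extract and cyclic di-GMP and received neither drug, and the Saline group (n = 5) was not sensitized. The labels do not state in words that the AM155 mice were sensitized, and no group given nanoparticles or vehicle alone was among the samples. They number the libraries without saying in words that each came from a separate mouse, so the p-values measure the spread between these libraries.

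Type I interferons are secreted proteins that warn cells of viruses and of foreign or misplaced nucleic acids. They bind the receptor made of Ifnar1 and Ifnar2, which activates STAT transcription factors; with Irf9 these form a complex that binds interferon stimulated response elements near the start of target genes. The products of those genes block steps of viral replication, and several are also induced by type III interferons or, more weakly, by interferon gamma. Cyclic di-GMP, the adjuvant of the sensitization, is a bacterial second messenger that activates STING, a sensor pathway known for inducing type I interferon.

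Promoter sequences from RefSeq (GRCm38.p6) matched 7 of the 9 genes by symbol; Oas2 and Ifi27l2a are named only. The core of the response element (GAAA, any 2 bases, then GAAA; on the other strand TTTC, any 2 bases, then TTTC) was searched in the 250 bases before each start, and overlapping matches were counted. It was found in 6 of the 7 windows (85.7%), against 978 of 32851 promoters of the same length (2.98%) and 12 of the 45 promoters of other interferon stimulated genes (26.7%). The 6 windows are printed below, 70 bases each on the gene's strand and 5′ to 3′, because they show the feature that most of the genes share beyond their name. Capitals mark the matches.
Isg15 (chr4:156200851-156200920, minus strand): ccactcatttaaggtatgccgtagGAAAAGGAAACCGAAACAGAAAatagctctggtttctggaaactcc
Oas3 (chr5:120777695-120777764, minus strand): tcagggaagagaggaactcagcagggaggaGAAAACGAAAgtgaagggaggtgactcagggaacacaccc
Oas1a (chr5:120907526-120907595, minus strand): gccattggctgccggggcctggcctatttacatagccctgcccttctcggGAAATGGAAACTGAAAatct
Rsad2 (chr12:26456533-26456602, minus strand): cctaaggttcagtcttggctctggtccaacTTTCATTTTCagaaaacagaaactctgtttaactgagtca
Ifit3 (chr19:34583360-34583429, plus strand): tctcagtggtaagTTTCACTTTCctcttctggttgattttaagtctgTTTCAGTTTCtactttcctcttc
Ifit1 (chr19:34640764-34640833, plus strand): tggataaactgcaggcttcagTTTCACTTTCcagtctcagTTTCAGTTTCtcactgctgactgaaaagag

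Isg15 held 3 overlapping matches between bases -78 and -57 from its start, and Oas1a held 2 overlapping matches between bases -20 and -5. Ifit1 and Ifit3 each held 2 separate matches on the other strand, while Oas3 and Rsad2 held 1 each. These letters were not in the window of Irf7. The gamma activated sequence (TTC, any 3 bases, then GAA), which reads the same on both strands and is known from genes induced by interferon gamma, was in 1 of the 7 windows, that of Oas1a, against 7.02% of all promoters. A match describes the sequence and does not show that a factor was bound.

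The genes lie on chromosomes 4, 5, 7, 12 and 19, and Oas1a, Oas2 and Oas3 are neighbours on chromosome 5, as Ifit1 and Ifit3 are on chromosome 19. Ifit3, Oas1a and Ifit1 have close relatives (Ifit3b, Oas1g and Ifit1bl1), between which similar reads could have been split, so their levels carry that uncertainty. Irf7 overlaps Phrf1 and Oas2 overlaps the uncharacterised transcript Gm43068 on the opposite strand, and whether the authors counted by strand is not given in the sources used here. None of the 9 symbols was listed in the deposited table of circular RNA, which holds 4416 symbols, so only linear RNA is described.

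Values are TPM, the share of a gene's transcripts in a library after correction for length. They hold no read count, and the depth of the libraries is therefore unknown. Genes that reached 1 TPM in 5 or more libraries, 17437 in number, were tested on log2(TPM + 1) with limma across all genes and Benjamini-Hochberg adjustment. A gene is called higher or lower where its adjusted p was under 0.05, and log2 changes are on that scale, which understates changes of low genes. All 9 genes passed the filter on low values. Where groups did not overlap for a gene, the share of all genes without overlap was not counted, so this is a description only. In all 27 libraries the defining lung markers were high, with the summed level of alveolar type 2 cell markers at 13946 to 25543 TPM and that of club cell markers at 19001 to 78696 TPM. The linear and circular tables together left 13.0% to 32.8% of the TPM scale unlisted in Dex_CDGHDM, AM155 and CDG_HDM libraries, against 9.57% to 11.1% in Saline libraries, so other scalings were tried. Libraries Saline 4 and AM155 6 stood apart from the rest on the second principal component, and calls that change without both are given beside the full values. In bulk lung, fewer cells of a type and less RNA per cell cannot be told apart.

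Ifi27l2a, a small interferon-induced membrane protein, had the highest mean of the 9 genes in each of the 4 groups, at 114 ± 20.0 TPM in Dex_CDGHDM, 328 ± 131 TPM in AM155, 142 ± 28.7 TPM in CDG_HDM and 289 ± 62.5 TPM in Saline libraries (SD). Ifit3, Irf7, Isg15 and Oas1a followed with group means of 8.89 to 32.0 TPM. Ifit1, Oas2, Oas3 and Rsad2 had group means of 3.28 to 9.50 TPM. Rsad2 had the lowest mean in Dex_CDGHDM, AM155 and CDG_HDM libraries, whereas in Saline libraries Oas3 was lowest. The order of neighbours was mostly the same in every library of Dex_CDGHDM and of CDG_HDM, and varied more in AM155 and Saline. In AM155, Irf7 and Ifit3 were in the order of their means in 2 of 6 libraries. Isg15 and Oas1a were so in 3 of 6 there, and Oas3 and Rsad2 in 4 of 6. In Saline, Irf7 and Isg15 were so in 2 of 5.

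**Figure D1:**
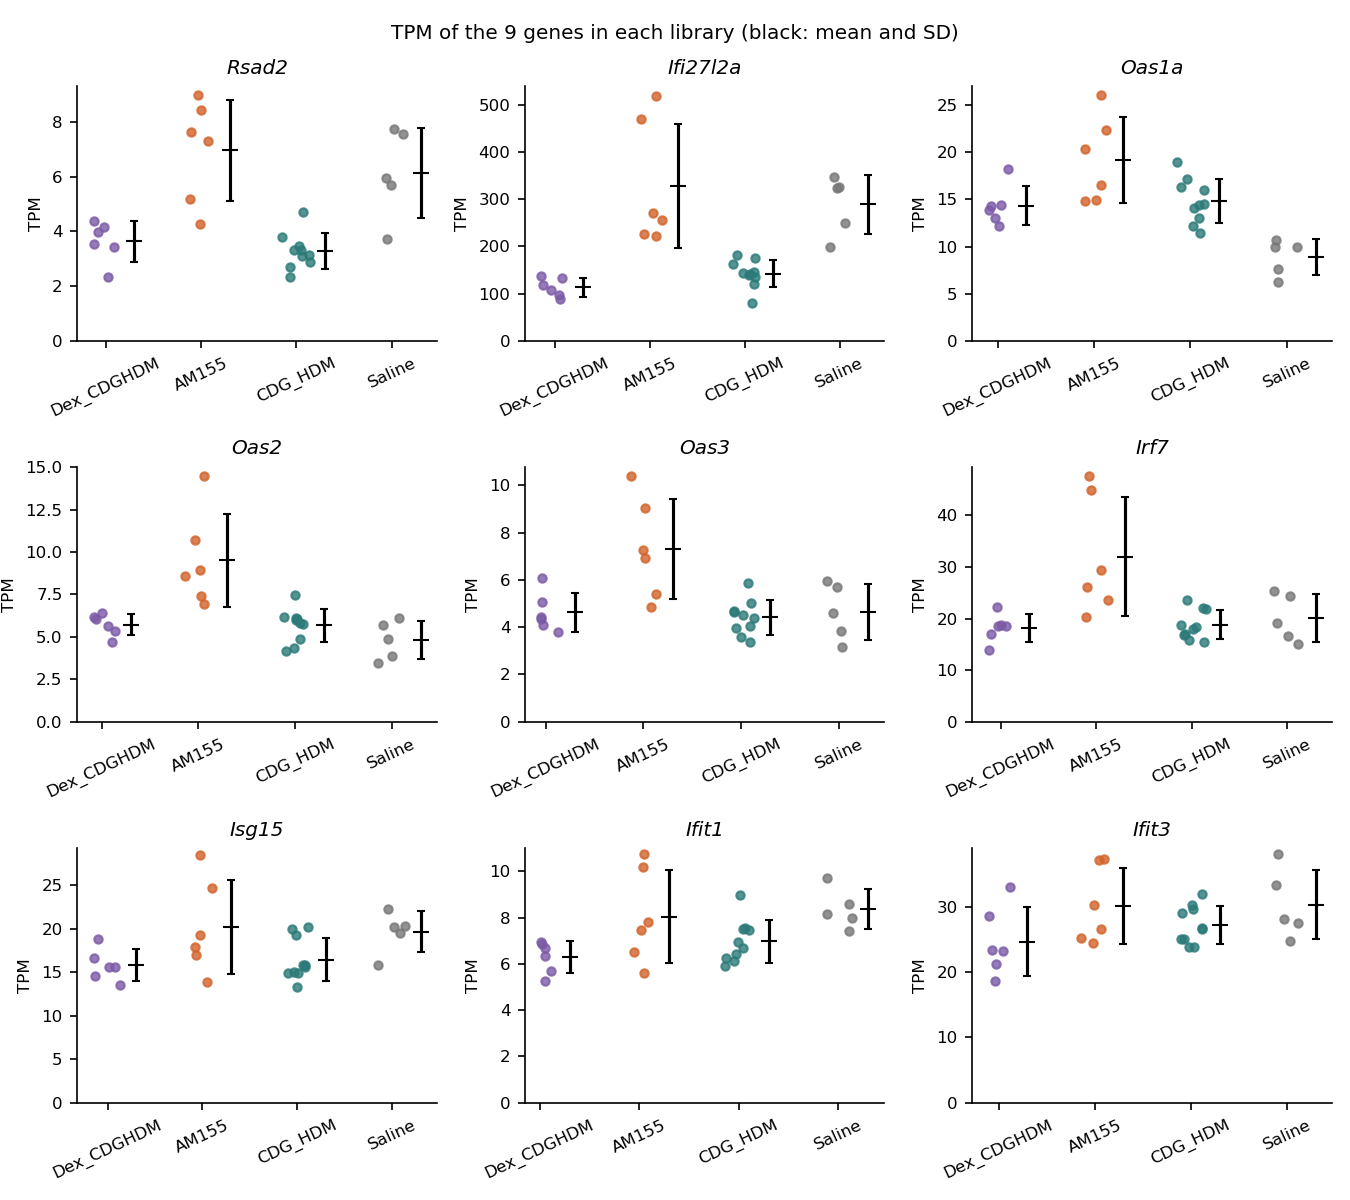
TPM of each of the 9 genes (linear axis from 0) in every library, 1 point per library, with the groups Dex_CDGHDM (n = 6), AM155 (n = 6), CDG_HDM (n = 10) and Saline (n = 5) from left to right; black bars are mean and SD. All AM155 points of Ifi27l2a lie above all CDG_HDM points, and all Saline points of Oas1a lie below those of the other 3 groups.

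The first comparison sets AM155 libraries against CDG_HDM libraries, from sensitized lungs left without either drug. Effects of antimiR-155 and of its nanoparticles cannot be told apart in it. Ifi27l2a, Rsad2 and Oas2 were higher in AM155 than in CDG_HDM libraries, with ratios of the mean TPM of 2.30, 2.13 and 1.67. Of the 9 genes, 3 were called higher and 0 lower; 0.103% of all genes tested were called in this comparison, with 0.0918% higher and 0.0115% lower. All 9 log2 changes were above 0, with a median of 0.59, against -0.08 over all genes tested. The changes spanned 0.13 for Ifit3 to 1.14 for Ifi27l2a.

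Ifi27l2a lay between 223 and 518 TPM in AM155 libraries (median 264), against 79.1 to 181 TPM in CDG_HDM libraries (median 142). The groups did not overlap, and AM155 3 and AM155 8, at 470.2 and 518 TPM, were well above the other 4 AM155 libraries. Its log2 change was 1.14 ± 0.175 (limma adjusted p = 0.00206). Rsad2, also known as viperin, makes a nucleotide analogue that stops viral RNA synthesis. It lay between 4.28 and 8.99 TPM in AM155 libraries (median 7.47), against 2.32 to 4.72 TPM in CDG_HDM libraries (median 3.23). In 5 of 6 AM155 libraries it was above every CDG_HDM library, the exception being AM155 2. Its log2 change was 0.88 ± 0.138 (limma adjusted p = 0.00231).

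The 3 OAS genes encode 2′-5′ oligoadenylate synthetases, which sense double-stranded RNA and make a small messenger that starts RNA decay. Oas2 lay between 6.94 and 14.5 TPM in AM155 libraries (median 8.75), against 4.14 to 7.47 TPM in CDG_HDM libraries (median 5.91). The groups overlapped, with 4 of 6 AM155 libraries above every CDG_HDM library, and the highest was AM155 3. The log2 change of Oas2 was 0.63 ± 0.123 (limma adjusted p = 0.0224), and this call was the least secure of the 3. Its adjusted p was 0.134 without AM155 3, 0.129 without AM155 8, 0.0541 without AM155 5, 0.0504 without CDG_HDM 8 and 0.0797 with only AM155 and CDG_HDM in the fit. Oas3 lay between 4.86 and 10.4 TPM in AM155 libraries (median 7.10), against 3.36 to 5.88 TPM in CDG_HDM libraries (median 4.45), and here too 4 of 6 AM155 libraries stood above all CDG_HDM libraries. Oas1a lay between 14.9 and 26.1 TPM in AM155 libraries (median 18.5), against 11.4 to 18.98 TPM in CDG_HDM libraries (median 14.5), and 3 of 6 AM155 libraries were above the CDG_HDM range.

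Irf7, the transcription factor that amplifies interferon production, lay between 20.2 and 47.7 TPM in AM155 libraries (median 27.7), against 15.4 to 23.5 TPM in CDG_HDM libraries (median 18.1). AM155 3 and AM155 8 were again highest, at 44.97 and 47.7 TPM, and only AM155 11 fell within the CDG_HDM range. Irf7 (0.68 ± 0.146, adjusted p = 0.0558) and Oas3 (0.59 ± 0.128, adjusted p = 0.0564) stood just short of the threshold in limma. Both passed it under each of the 3 other scalings and without Saline 4 and AM155 6, where 5 of the 9 genes were called higher. The log2 change of Oas1a was 0.34 ± 0.121 (limma adjusted p = 0.594).

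Isg15, Ifit1 and Ifit3 were not called in this comparison. Isg15, a ubiquitin-like protein attached to other proteins, lay between 13.9 and 28.5 TPM in AM155 libraries (median 18.6), against 13.3 to 20.2 TPM in CDG_HDM libraries (median 15.7). Ifit1 and Ifit3 belong to a family that binds foreign RNA. Ifit1 lay between 5.61 and 10.7 TPM in AM155 libraries (median 7.63), against 5.92 to 8.97 TPM in CDG_HDM libraries (median 6.81). Ifit3 lay between 24.4 and 37.3 TPM in AM155 libraries (median 28.5), against 23.8 to 32.0 TPM in CDG_HDM libraries (median 26.7). All 3 overlapped broadly between the groups, with only AM155 3 and AM155 8 above the CDG_HDM range. The 95% intervals of the log2 change reached 0.49 for Isg15, 0.37 for Ifit1 and 0.36 for Ifit3, so rises of that size were not excluded by the spread between libraries.

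**Figure D2:**
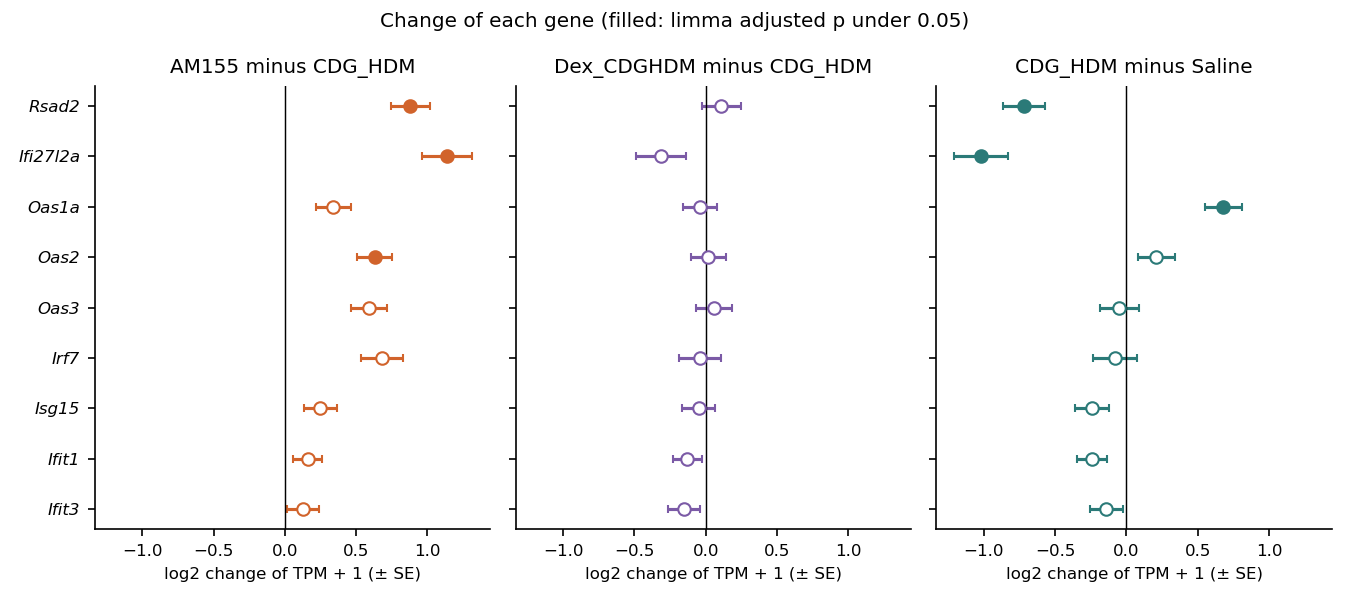
Log2 change of TPM + 1 of each gene (horizontal axis, points with SE) for AM155 minus CDG_HDM, Dex_CDGHDM minus CDG_HDM and CDG_HDM minus Saline; filled points had a limma adjusted p under 0.05. The left panel has 3 filled points, all above 0, the middle panel has 0, and the right panel has 1 filled point above 0 (Oas1a) and 2 below (Rsad2 and Ifi27l2a).

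In the other interferon lists examined no gene was called in this comparison; whether they differed from the 9 genes was not tested. Outside the lists, Ifitm6 (1.21 ± 0.221, limma adjusted p = 0.011) and Slfn4 (0.99 ± 0.20, limma adjusted p = 0.0298), members of the IFITM and Schlafen families, were called higher; both were picked out after their values were seen. Of 46 other interferon stimulated genes tested, 0 were called in AM155 against CDG_HDM, and their median log2 change was 0.06. Of 5 other tested genes of the OAS pathway, 0 were called, with a median of 0.34; Oasl1, an OAS-like gene, was at 0.56 ± 0.134 (limma adjusted p = 0.162). Of the 6 relatives of the IFIT and IFI27 families, 0 were called (median 0.09). The receptor and signalling genes gave 0 calls of 9 (median -0.05): Irf9 was at 0.07 ± 0.0834 and Ifnar1 at -0.03 ± 0.110. The sensors and adaptors that induce interferon gave 0 calls of 18, and interferon gamma with its preferential targets 0 of 11. Usp18, which removes Isg15 from proteins and damps the receptor, was at 0.10 ± 0.0943.

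Markers of other cells moved in the same comparison. Of 10 neutrophil markers, 3 were called higher in AM155, namely Ngp (2.36 ± 0.202, limma adjusted p = 2e-08), S100a8 (1.41 ± 0.243, adjusted p = 0.00738) and S100a9 (1.37 ± 0.246, adjusted p = 0.0104). Ngp encodes a neutrophil granule protein, and S100a8 and S100a9 the subunits of calprotectin. The summed level of the 10 markers was 723 to 1911 TPM in AM155 libraries (median 1009.6). In CDG_HDM libraries it was 275 to 692 TPM (median 449), without overlap, and no marker was at 0 in either group. S100a8 and S100a9 made up most of the sum (means of 399 and 536 TPM in AM155, 146 and 205 TPM in CDG_HDM). Csf3r and Cxcr2 were not called (means of 21.8 and 9.17 TPM in AM155, 17.4 and 7.97 TPM in CDG_HDM). Of 5 tested NK cell markers, 1 was called higher, Gzma (0.80 ± 0.166, limma adjusted p = 0.0378). Summed NK marker levels were 67.1 to 98.1 TPM in AM155 libraries and 47.9 to 85.5 TPM in CDG_HDM libraries. Gzma was the largest part of that sum, with means of 44.0 and 25.2 TPM. Only Klrb1c had a lower mean in AM155 (15.7 against 16.3 TPM). Markers of plasmacytoid dendritic cells, which are known for high interferon output, gave 0 calls of 10. Their sums were 162 to 297 TPM in AM155 libraries and 224 to 303 TPM in CDG_HDM libraries. Tcf4 alone made up most of these sums, with means of 142 and 145 TPM, while the defining Siglech was at 5.47 and 5.73 TPM. The part of these cells in the changes of Ifi27l2a, Rsad2 and Oas2 was not tested.

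Dex_CDGHDM libraries were next compared with CDG_HDM libraries, again without a group given vehicle alone. None of the 9 genes was called by limma, where 0.00573% of all genes tested, which is 1 gene, were called. Of the 9 genes, 0 had an unadjusted limma p under 0.05. Of all genes tested 3.97% did, so that count was near the background. The log2 changes ran between -0.31 for Ifi27l2a and 0.11 for Rsad2, with a median of -0.04 against -0.01 over all genes tested. Ifi27l2a lay between 88.1 and 138 TPM in Dex_CDGHDM libraries (median 112), all within the CDG_HDM range. Its 95% interval was -0.67 to 0.05, the widest of the 9. Rsad2 lay between 2.32 and 4.39 TPM in Dex_CDGHDM libraries (median 3.76), and its interval was -0.17 to 0.39. Irf7 lay between 13.9 and 22.3 TPM in Dex_CDGHDM libraries (median 18.5), with an interval of -0.34 to 0.26. Ifit3 was below every CDG_HDM library in 4 of 6 Dex_CDGHDM libraries, yet Dex_CDGHDM 1, at 33.0 TPM, was above them all, and its interval was -0.38 to 0.07. The intervals thus leave room for changes of these sizes, and the missing calls do not show that dexamethasone left the genes as they were. In every other interferon list examined, 0 genes were called in this comparison.

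The comparison of CDG_HDM with Saline asks what sensitization did. The 9 genes moved in different directions: Oas1a was higher in CDG_HDM, Rsad2 and Ifi27l2a were lower, and 6 were not called. The share of all genes called was 32.2% (9.35% higher and 22.8% lower), so 3 calls of 9 were close to the background. In counts that is 1631 genes higher and 3976 lower, and the split was 4568 and 2697 with each library scaled to a common sum. The median log2 change of the 9 genes was -0.14, against -0.10 over all genes tested. Under the 3 other scalings the median of all genes moved to between -0.01 and 0.04. The same 3 calls were made with the same signs, with Oas2 called higher in addition. Of all genes, 41.7% to 44.9% were called under these scalings.

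Oas1a lay between 11.4 and 18.98 TPM in CDG_HDM libraries, against 9.92, 7.59, 6.29, 9.96 and 10.7 TPM in the 5 Saline libraries. All CDG_HDM libraries were above all Saline libraries, and so were the Dex_CDGHDM libraries, at 12.2 to 18.2 TPM, and the AM155 libraries. The log2 change in CDG_HDM was 0.68 ± 0.129 (limma adjusted p = 0.000122). Rsad2 lay between 2.32 and 4.72 TPM in CDG_HDM libraries, against 5.97, 3.71, 7.55, 7.75 and 5.68 TPM in the Saline libraries. In 8 of 10 CDG_HDM libraries it was below the lowest Saline library. Its log2 change was -0.72 ± 0.146 (limma adjusted p = 0.000315). Ifi27l2a lay between 79.1 and 181 TPM in CDG_HDM libraries, against 324, 327, 199.5, 249 and 347 TPM in the Saline libraries. All 10 CDG_HDM libraries were below all Saline libraries. Its log2 change was -1.02 ± 0.186 (limma adjusted p = 8.63e-05). For Ifi27l2a and Rsad2 the AM155 libraries overlapped the Saline libraries, and no change between AM155 and Saline was called (0.12 ± 0.206 with adjusted p = 0.652, and 0.16 ± 0.162 with adjusted p = 0.435, limma); 40.5% of all genes were called there. With each library scaled to a common sum, Rsad2 was called higher in AM155 than in Saline libraries (0.40 ± 0.151, limma adjusted p = 0.0362).

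The other 6 genes overlapped between CDG_HDM and Saline libraries. Oas2 lay between 4.14 and 7.47 TPM in CDG_HDM libraries, against 4.87, 3.49, 3.87, 5.69 and 6.13 TPM in the Saline libraries. Oas3 lay between 3.36 and 5.88 TPM in CDG_HDM libraries, against 4.60, 3.18, 3.83, 5.95 and 5.70 TPM in the Saline libraries. Both genes had their lowest value in Saline 4. Irf7 lay between 15.4 and 23.5 TPM in CDG_HDM libraries, inside the Saline values of 19.1, 16.7, 15.02, 25.3 and 24.3 TPM. Isg15 lay between 13.3 and 20.2 TPM in CDG_HDM libraries, against 20.2, 20.3, 15.9, 22.3 and 19.6 TPM in the Saline libraries. For Isg15, 7 of 10 CDG_HDM libraries were below every Saline library. Ifit1 lay between 5.92 and 8.97 TPM in CDG_HDM libraries, 6 of 10 of them below the Saline values of 8.57, 7.43, 8.01, 9.73 and 8.18 TPM. Ifit3 lay between 23.8 and 32.0 TPM in CDG_HDM libraries, against 33.3, 24.7, 27.5, 38.0 and 28.1 TPM in the Saline libraries. For Ifit3 only 2 of 10 CDG_HDM libraries were below the Saline range. Their log2 changes lay between -0.24 for Isg15 and Ifit1 and 0.21 for Oas2, with limma adjusted p between 0.0907 for Ifit1 and 0.819 for Oas3. Ifit1 was called lower without Saline 4 and AM155 6 (-0.27 ± 0.103, limma adjusted p = 0.0293), with only CDG_HDM and Saline in the fit (adjusted p = 0.041) and without CDG_HDM 5 (adjusted p = 0.0449). The signs for Oas3, Irf7 and Ifit3 depended on the scaling.

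**Figure D3:**
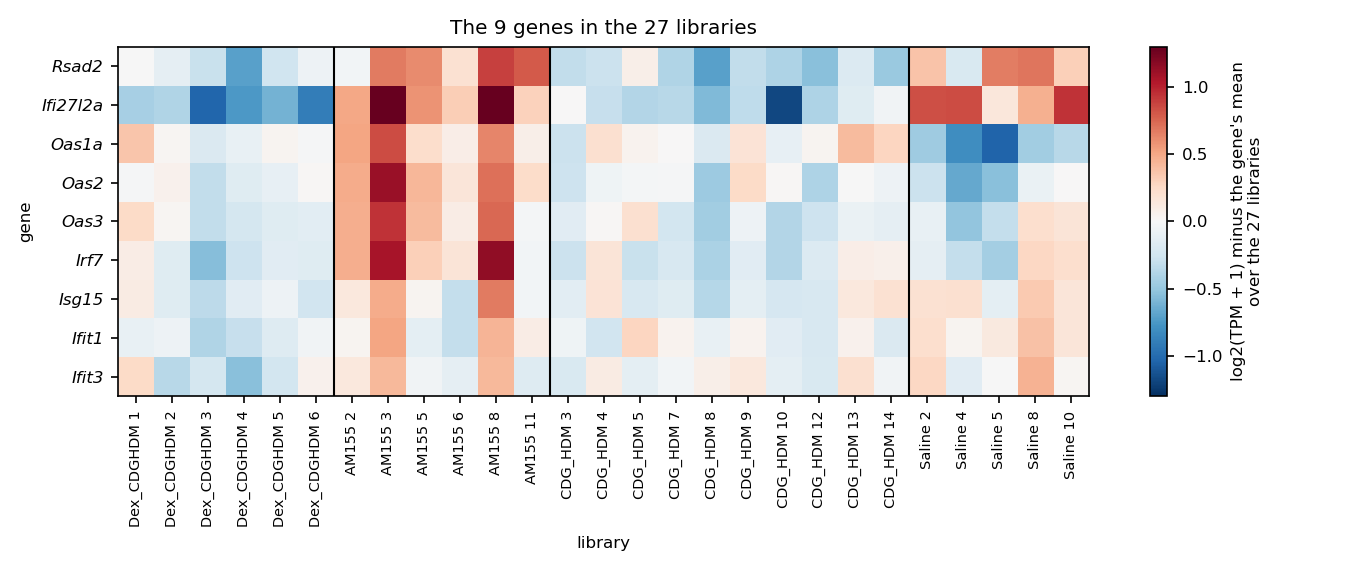
Log2(TPM + 1) of each gene (rows) in each of the 27 libraries (columns), as the difference from that gene's mean over all libraries (colour, red above and blue below); vertical lines separate Dex_CDGHDM, AM155, CDG_HDM and Saline. AM155 3 and AM155 8 are red in all 9 rows, while Saline libraries are blue for Oas1a and mostly red for Rsad2 and Ifi27l2a.

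Around these genes, several parts of the pathway were higher in CDG_HDM than in Saline libraries. Of 9 receptor and signalling genes, 3 were called higher and 1 lower. Ifnar2 and Stat2 were among those higher, at 0.39 ± 0.0928 and 0.31 ± 0.0983 (limma adjusted p = 0.00137 and 0.0145), and the type III receptor gene Ifnlr1 was lower at -0.26 ± 0.0897. Irf9 was at 0.18 ± 0.0885 and Ifnar1 at 0.11 ± 0.116, and neither was called. Of 18 genes that induce interferon, 7 were called higher and 0 lower, led by Unc93b1, a carrier of Toll-like receptors (1.08 ± 0.123), and the transcription factors Irf8 (1.06 ± 0.123) and Irf5 (0.93 ± 0.125).

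Among other interferon stimulated genes, 20 of 46 were called higher and 3 lower in CDG_HDM, with a median log2 change of 0.21. The chemokine Cxcl10 was at 2.04 ± 0.304, the macrophage lectin Siglec1 at 0.88 ± 0.131 and Ifi205 at 0.81 ± 0.111. The restriction factors Ifitm2 and Ifitm3, which block viral entry, were lower, at -0.49 ± 0.0935 and -0.35 ± 0.0961, as was Ly6a at -0.38 ± 0.110. Of 11 genes of interferon gamma and its preferential targets, 9 were called higher and 0 lower (median 1.02), among them H2-Ab1, an MHC class II chain (2.04 ± 0.157), Ifng itself (1.31 ± 0.147) and the MHC class II activator Ciita (1.20 ± 0.128). Of 9 negative regulators 4 were called higher, led by Nlrc5 (1.89 ± 0.166), which also activates MHC class I genes. Of 5 other tested genes of the OAS pathway, 1 was called (median -0.03), Oas1g, higher by 0.38 ± 0.127 beside Oas1a. Of the 6 relatives of the IFIT and IFI27 families, 3 were called lower and 0 higher (median -0.27). These were Ifit3b, Ifit1bl2 and Ifit2, at -0.70 ± 0.106, -0.36 ± 0.0757 and -0.35 ± 0.103. All calls in these lists had a limma adjusted p under 0.05, and 32.2% of all genes did. Usp18 was at -0.02 ± 0.10, without a call.

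Cell type markers moved with the same comparison. All 8 interstitial macrophage markers were called higher in CDG_HDM, with sums of 2322 to 5371 TPM against 758 to 1096 TPM in Saline libraries. Of 10 neutrophil markers 7 were called lower and 0 higher, with sums of 275 to 692 TPM in CDG_HDM libraries and 645 to 1318 TPM in Saline libraries. Of 5 tested NK cell markers 4 were called lower, with sums of 47.9 to 85.5 TPM in CDG_HDM libraries and 75.7 to 137 TPM in Saline libraries. Of 10 plasmacytoid dendritic cell markers 3 were called higher and 1 lower, while the defining Siglech was at 5.73 ± 1.69 TPM in CDG_HDM and 5.07 ± 0.907 TPM in Saline libraries. The part of these cells in the changes of Oas1a, Rsad2 and Ifi27l2a was not tested.

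The interferon genes themselves were low in all 4 groups. Of 20 type I and type III interferon genes measured, 4 passed the filter (Ifna11, Ifna16, Ifnk and Ifnl3), and the highest value of any of the 20 in any library was 7.91 TPM, that of Ifnk in an AM155 library. Ifnb1, the interferon beta gene, did not exceed 0.346 TPM in any library. The 11 Ifna genes that did not pass the filter reached at most 0.985 TPM. No interferon gene of the list was called in AM155 against CDG_HDM, in Dex_CDGHDM against CDG_HDM or in CDG_HDM against Saline. Ifnl3, a type III interferon gene that did not exceed 1.53 TPM in any library, was called higher against Saline in Dex_CDGHDM (0.52 ± 0.189, limma adjusted p = 0.0433) and in AM155 libraries (0.49 ± 0.189, limma adjusted p = 0.038). Ifnk, a type I interferon gene of skin cells, was called lower in AM155 than in Saline libraries (-0.39 ± 0.135, limma adjusted p = 0.0243).

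Within 1 library the ratio of 2 genes does not depend on how that library was scaled. For some of the 36 pairs the range of this ratio differed between groups, and only some pairs are printed here. The ratios were not tested, and they use the same values as the calls above. The log2 ratio of Oas1a to Isg15 lay between -0.26 and -0.05 in Dex_CDGHDM, between -0.35 and 0.10 in AM155 and between -0.47 and 0.01 in CDG_HDM libraries, against -1.42 to -0.87 in Saline libraries. Saline libraries thus had less Oas1a per Isg15 than every other library. The log2 ratio of Ifi27l2a to Isg15 lay between 2.70 and 3.14 in Dex_CDGHDM, between 3.72 and 4.25 in AM155 and between 2.41 and 3.52 in CDG_HDM libraries, against 3.48 to 4.15 in Saline libraries. Here AM155 libraries did not overlap CDG_HDM or Dex_CDGHDM libraries, but they overlapped Saline libraries. The log2 ratio of Oas1a to Ifi27l2a lay between -3.27 and -2.79 in Dex_CDGHDM, between -4.53 and -3.66 in AM155 and between -3.99 and -2.61 in CDG_HDM libraries, against -5.43 to -4.64 in Saline libraries. AM155 libraries overlapped CDG_HDM libraries for this ratio, and were apart from both other groups. The log2 ratio of Oas2 to Ifit3 lay between -1.86 and -1.36 in AM155 libraries, above the CDG_HDM range of -2.81 to -2.01. Among all pairs, AM155 and CDG_HDM libraries did not overlap only for Ifi27l2a with Isg15, Ifit1 and Ifit3, and for Ifit3 with Oas2 and Irf7. Some gaps were narrow: Ifi27l2a to Ifit1 began at 4.84 in AM155 and ended at 4.81 in CDG_HDM libraries. Irf7 to Ifit3 began at -0.27 in AM155 and ended at -0.28 in CDG_HDM libraries. CDG_HDM and Saline libraries did not overlap for Oas1a with each other gene except Oas2. The same held for Rsad2 and Ifi27l2a, each with Oas2 and Oas3. How often pairs of other genes did not overlap was not examined, so these pairs are a description only.

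**Figure D4:**
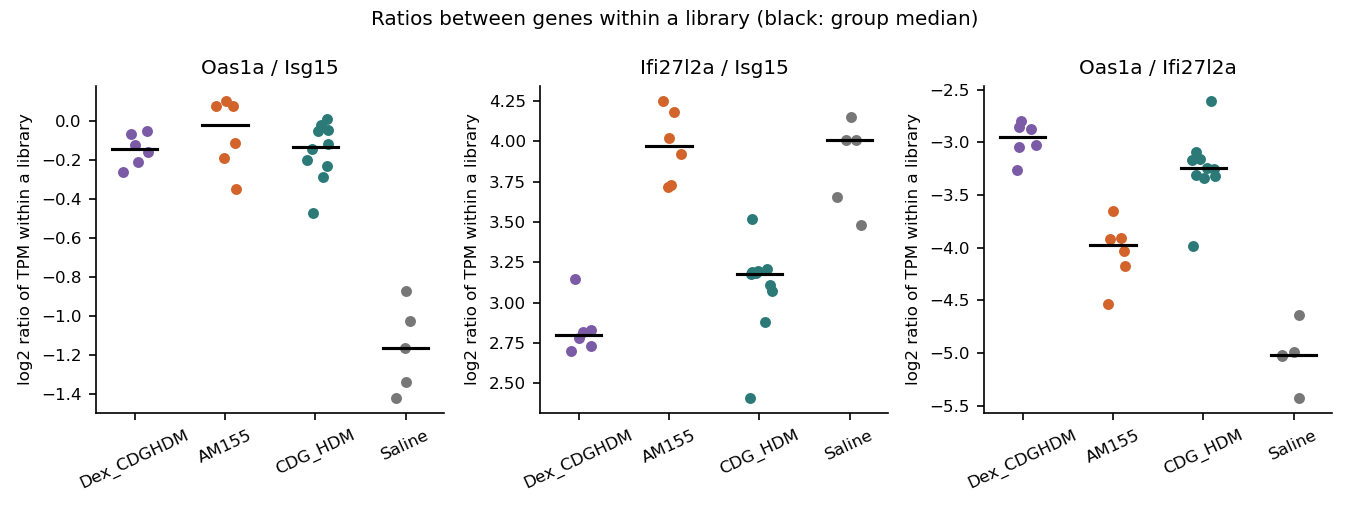
Log2 ratio of TPM within a library (vertical axis) for Oas1a over Isg15, Ifi27l2a over Isg15 and Oas1a over Ifi27l2a, 1 point per library with the group median in black, for Dex_CDGHDM, AM155, CDG_HDM and Saline. Saline points lie below all others in the left and right panels, and AM155 points lie above all Dex_CDGHDM and CDG_HDM points in the middle panel.

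Dex_CDGHDM and AM155 libraries were also set against each other. Rsad2 (-0.76 ± 0.154, limma adjusted p = 0.0366) and Ifi27l2a (-1.45 ± 0.196, limma adjusted p = 0.000266) were lower in Dex_CDGHDM, where 0.0803% of all genes were called, 0.0631% lower and 0.0172% higher. Ifi27l2a and Oas2 did not overlap between these groups; Oas2 lay between 4.71 and 6.39 TPM in Dex_CDGHDM libraries, below all AM155 libraries, at a log2 change of -0.61 ± 0.137 (limma adjusted p = 0.0779). It was called lower without Saline 4 and AM155 6 (-0.69 ± 0.134, limma adjusted p = 0.0278), without AM155 6 or AM155 11 alone (adjusted p = 0.0463 and 0.0412) and under the 3 other scalings (adjusted p between 0.0036 and 0.00658). Irf7 and Oas3 were called lower under those 3 scalings too. All 9 changes were below 0, with a median of -0.53, against 0.06 over all genes tested. The call of Rsad2 was lost when any of 8 libraries was left out, with an adjusted p of up to 0.129 (without AM155 8), whereas that of Ifi27l2a was kept without each library in turn. Ngp (-1.76 ± 0.226) and the NK cell marker Gzma (-1.14 ± 0.186) were lower in Dex_CDGHDM too, and their part was not tested. Dex_CDGHDM minus AM155 shares its libraries with the comparisons above.

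Against Saline, Dex_CDGHDM libraries gave 1 call higher and 3 lower of 9, with 25.1% of all genes called. Oas1a was higher (0.64 ± 0.142, limma adjusted p = 0.00109), and Rsad2 (-0.60 ± 0.162), Ifi27l2a (-1.33 ± 0.206) and Ifit1 (-0.36 ± 0.119) were lower, with limma adjusted p of 0.00602, 1.55e-05 and 0.0229. Ifit1 lay between 5.26 and 6.96 TPM in Dex_CDGHDM libraries, all below the Saline libraries, but its adjusted p was 0.123 with each library scaled to a common sum, 0.0641 without Dex_CDGHDM 3, 0.0514 without Dex_CDGHDM 4 and 0.0750 without Saline 8. Ifit3 was called lower without Saline 4 and AM155 6 (-0.36 ± 0.135, limma adjusted p = 0.0328), without Saline 4 alone (adjusted p = 0.0408) and without Dex_CDGHDM 1 (adjusted p = 0.0315). Isg15 was called lower with only Dex_CDGHDM and Saline in the fit (-0.30 ± 0.0981, limma adjusted p = 0.0318). Oas2 was called higher under the 3 other scalings (limma adjusted p between 0.014 and 0.0351), where 34.8% to 36.2% of all genes were called. Against Saline, AM155 libraries gave 4 calls higher and 0 lower of 9, where 7.82% of all genes were called higher and 32.7% lower. These were Oas1a (1.02 ± 0.142), Oas2 (0.84 ± 0.144), Irf7 (0.60 ± 0.171) and Oas3 (0.54 ± 0.150), with limma adjusted p of 2.64e-06, 4.54e-05, 0.00658 and 0.00505. Oas1a and Oas2 did not overlap between AM155 and Saline libraries, where 40.5% of all genes were called in either direction.

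Most of the 9 genes varied together between libraries of the same group, with Rsad2 the least tied to the others. After each group's mean was removed from log2(TPM + 1), all 36 pairs had a Pearson r above 0 over the 27 libraries, between 0.16 and 0.89 with a median of 0.62, and Spearman's rho lay between 0.14 and 0.90. By permutation within groups with adjustment over the 36 pairs, 29 pairs passed 0.05 for r and 27 for rho. Rsad2 passed for r only with Oas3 and Ifit1 (permutation adjusted p = 0.0331 and 0.00536). Without the 2 libraries farthest from the median of the first gene of each pair, r lay between 0.19 and 0.86 with a median of 0.57. Oas1a and Irf7 had the highest r, 0.89 with rho of 0.90 (permutation p = 1e-05, the smallest that 100000 resamples can give, adjusted p = 9e-05), and r was 0.86 without the 2 farthest libraries. Rsad2 and Ifi27l2a, both called higher in AM155, had the lowest r, 0.16 (permutation p = 0.5). Over the 10 CDG_HDM libraries alone the median r was 0.40, with a range of -0.27 to 0.95, and 3 of 36 pairs passed by permutation. Without the AM155 libraries, an alternative chosen after seeing the data, the median r over 21 libraries was 0.52, and 17 pairs passed. All values of a library share its TPM scale, and with median-of-ratios scaling the median r was 0.56, with 20 pairs passing for r. No pair with Rsad2 was among them, the lowest permutation adjusted p being 0.138, with Ifit1.

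**Figure D5:**
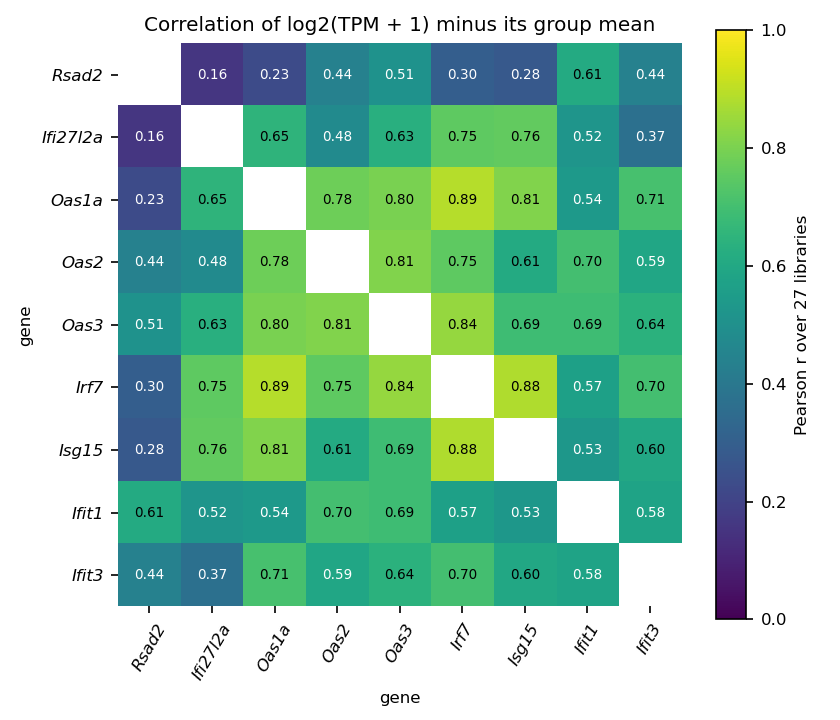
Pearson r between each pair of the 9 genes over the 27 libraries (colour and printed value), computed on log2(TPM + 1) minus the mean of the library's group. The values run between 0.16 for Rsad2 with Ifi27l2a and 0.89 for Oas1a with Irf7.

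The genes outside the 9 whose pattern was most like theirs were ranked by r with the mean of the 9 standardized genes, after group means were removed, over the 27 libraries. They were Dhx58 (r = 0.91), Cmpk2 (0.90), Irf9 (0.88), Rnf213 (0.87), Ddx60 (0.87), Rtp4 (0.87), Oasl1 (0.87) and Ifi44 (0.86). Without the 2 farthest libraries their r lay between 0.82 and 0.90. They were the top of all genes tested, so no p is given. Their levels differed widely, with AM155 means between 4.61 ± 1.52 TPM for Oasl1 and 54.1 ± 9.30 TPM for Rnf213.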

How the data were processed

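The deposited values are TPM of linear RNA by gene symbol, made by the authors from ribosome-depleted, stranded, paired-end libraries. Per the submitters' processing notes, CASAVA 1.9 and the mm10 build were used; the aligner, the quantifier and the annotation are not given in the sources that were used. The members and lists were chosen with earlier results of these data known. Values were transformed to log2(TPM + 1), the log2 scale not being the authors' deposited one, and fitted with limma 3.58.1 (R 4.3.3) over the 17437 genes that reached 1 TPM in 5 or more libraries. All 27 libraries entered 1 fit with 6 contrasts and a trend in the variance, with two-sided tests and Benjamini-Hochberg adjustment over all genes tested. The fit was tested on simulated data. Of the lists' genes, up to 3 per list and direction with the smallest adjusted p are named, beside all 9 members, the interferon genes and Ifnar1, Ifnar2, Stat2, Irf9 and Usp18, while some genes of the lists are not reported here; Oasl1, Siglech, Ngp and Gzma in Dex_CDGHDM against AM155 were chosen after their values were seen. Levels were compared between genes in TPM, which is per length. TPM holds no depth, so no counting interval is given. Alternatives were 3 scalings, other pseudocounts and filters, other variance settings, fits without Saline 4 and AM155 6 or without each library, and the replicate number as a block. Promoter sequences came from RefSeq and positions from GENCODE M21.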

Additional observations from a re-analysis of the deposited data

Results flagged for a closer look

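Ifi27l2a in library CDG_HDM 10, at 79.1 TPM, was below the other 9 CDG_HDM libraries. On the log2(TPM + 1) scale, where outliers were sought, its gap to the next was 0.52 of the group's range. This flag came from 1 of 36 sets of a gene and a group examined, and chance flags about 1 in 20 groups. Rsad2 (-0.76) and Ifi27l2a (-1.45) differed on the log2 scale between the Dex_CDGHDM and AM155 groups, which share CDG_HDM as their comparison; the difference was tested directly with limma.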

How the results depend on the processing

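For AM155 against CDG_HDM, 5 genes were called higher under median-of-ratios scaling, quantile normalization, a common sum of the linear table, and without Saline 4 and AM155 6, and 2 to 5 without single libraries. For CDG_HDM and for Dex_CDGHDM against Saline, 2 were called higher under each of the 3 scalings. For Dex_CDGHDM against AM155, 6 were called lower under median-of-ratios scaling, 5 under the other 2 scalings, 1 with no filter, and 1 to 3 without single libraries. The median r between genes was 0.40 in CDG_HDM libraries alone. Ifi27l2a kept its calls in AM155 against CDG_HDM, CDG_HDM against Saline and Dex_CDGHDM against AM155 in every setting run, as Rsad2 and Oas1a did in CDG_HDM against Saline. The replicate numbers did not pair the libraries: same-numbered libraries of different groups correlated at a median r of 0.0246 (20 pairs), and 1 of 20 libraries correlated best with its own number. With the replicate block, 1 gene was called higher in AM155 against CDG_HDM (Ifi27l2a) and 1 lower in Dex_CDGHDM against AM155; Rsad2 had an adjusted p of 0.171 and 0.15 there, and Oas2 0.093 in AM155 against CDG_HDM (limma). Signs turned only for changes that were not called. With the replicate block, Dex_CDGHDM against CDG_HDM gave Oas1a 0.09, Irf7 0.12 and Isg15 0.06. For CDG_HDM against Saline, the median-of-ratios, quantile and common-sum scalings gave Oas3 0.05, 0.04 and 0.09; Irf7 was 0.03 and 0.08 under the first and the last, and Ifit3 0.02 under the last. For Dex_CDGHDM against Saline, Oas3 was -0.09 without Saline 4 and AM155 6 and 0.0 with the block, and Irf7 0.0 under median-of-ratios and 0.07 under common-sum scaling. For AM155 against Saline, the 3 scalings in that order gave Ifit1 0.10, 0.08 and 0.17, and Ifit3 0.19, 0.17 and 0.26. Without single libraries, Dex_CDGHDM against CDG_HDM ranged over -0.11 to 0.0 for Oas1a, -0.02 to 0.06 for Oas2, -0.01 to 0.10 for Oas3 and -0.10 to 0.03 for Irf7. CDG_HDM against Saline ranged over -0.15 to 0.03 for Oas3 and -0.17 to 0.01 for Irf7, and Dex_CDGHDM against Saline over -0.09 to 0.09 for Oas3. AM155 against Saline ranged over -0.03 to 0.21 for Ifi27l2a, -0.09 to 0.10 for Isg15, -0.16 to 0.01 for Ifit1 and -0.08 to 0.07 for Ifit3. The cause of these turns was not tested. Over all genes, Dex_CDGHDM against CDG_HDM gave 1 call, and 47, 63 and 35 under the 3 scalings; AM155 against CDG_HDM gave 18, and 34, 33 and 38; Dex_CDGHDM against AM155 gave 14, and 103, 115 and 62. Without Saline 4 and AM155 6, CDG_HDM against Saline gave 8660 calls in place of 5607 and Dex_CDGHDM against Saline 7655 in place of 4376; with the block they gave 3315 and 2815.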
